A study of Mus musculus with 12 samples.

Results

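Ahsa2 and 9 genes of the HSP90 chaperone system were followed in blood stem cells and progenitors sorted from fetal livers of mice. The 10 genes were all found by symbol among the 24054 genes of the expression tables. Ahsa2 was chosen by its higher level in Setdb1 mutant MPP than in control MPP in these same libraries, and the choice was made with earlier results of all 12 libraries known, so its values are given as descriptions without a test. The other 9 genes, Ahsa1, Hsp90aa1, Hsp90ab1, Hsp90b1, Cdc37, Stip1, Hspa8, Hsf1 and Dnajb1, were named for their function beside it.

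Setdb1 encodes a methyltransferase for lysine 9 of histone H3. RNA sequencing covered 12 libraries from E13.5 fetal liver, 3 for each of LT-HSC (long-term haematopoietic stem cells) and MPP (multipotent progenitors) in controls and mutants. All cells came from the LSK gate for early blood progenitors, with LT-HSC taken as CD150+ CD48- and MPP as CD150- CD48+. The mutants were Setdb1 p/p;vav-cre, vav-cre being a transgene that makes Cre recombinase in cells of the blood lineage. All controls were Setdb1 +/p. LT-HSC control 1 and MPP controls 1 and 2 lacked the transgene (+/+ at that site), while LT-HSC controls 2 and 3 and MPP control 3 carried vav-cre. The p allele is not defined in the labels, and every group carried at least 1 copy of it. No label ties a library to 1 fetus, so p-values here measure only the spread between these libraries, which may be technical. LT-HSC samples came from 500 to 1000 sorted cells and MPP samples from 20000, with 10 ng of input RNA.

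HSP90 proteins are ATP-driven chaperones that hold kinases, steroid receptors and other client proteins in a form that can be activated. HSP70 and its HSP40 partners pass clients on to HSP90 through the adaptor Stip1 (HOP), and Cdc37 brings kinase clients. The AHA1-type proteins Ahsa1 and Ahsa2 bind HSP90 and speed its ATPase cycle. HSF1 is the transcription factor that switches on chaperone genes during heat shock and is itself held by chaperones in unstressed cells.

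Setdb1 stood at 83.9, 73.5 and 108 CPM (counts scaled by library size) in LT-HSC controls 1 to 3, and at 66.5, 66.5 and 80.8 in the LT-HSC mutants. In MPP they were 140, 95.3 and 87.9 in controls and 87.0, 117 and 99.1 in mutants. The genotype groups overlapped in both cell types, and a total over the whole gene does not check the genotype labels, since reads from the altered part are not counted apart. The gate's own genes followed the sort: Slamf1 (CD150) lay at 34.7 to 41.6 CPM in the 6 LT-HSC libraries and 1.09 to 2.39 in the 6 MPP libraries, and Cd48 at 10.6 to 30.4 against 150 to 259. Ly6a (Sca-1, the S of LSK) fell in MPP mutants, from 26.3 to 35.2 CPM in controls to 13.7 to 16.9 (log2 -1.07, SE 0.15, edgeR adjusted p = 0.000339). The 12 LSK genes listed summed to 3623 to 3893 CPM in MPP controls against 2783 to 3098 in mutants, without overlap, and to 3647 to 4017 against 2933 to 3660 in LT-HSC. Library totals lay between 10119416 and 14113198 expected counts. Replicates differed by more than counting noise in every pair (chi-square per gene 5.01 to 47.2), most of all LT-HSC mutants 2 and 3. Summed markers of other cell types moved with genotype. The 14 hepatoblast genes summed to 1145 to 2452 CPM in LT-HSC controls, 421 to 1024 in LT-HSC mutants, 569 to 835 in the MPP controls and 179 to 199 in the MPP mutants. The 13 macrophage genes summed to 1198 to 1525, 573 to 1355, 1472 to 2124 and 342 to 480 CPM in the same order, and the 14 erythroid genes to 3399 to 5925, 3403 to 6311, 1763 to 3331 and 5723 to 8694. In MPP 8 of 14 hepatoblast and 12 of 13 macrophage genes fell and 12 of 13 erythroid genes tested rose, where 18.5% of all genes fell and 16.5% rose. In LT-HSC edgeR called 0 of 14 hepatoblast and 0 of 13 macrophage genes, with 11 and 3 at an unadjusted p under 0.05, while DESeq2 called 2 and 1 of them as lower. There 1 of 13 erythroid genes rose. Over all genes in LT-HSC, 0.257% rose, 0.163% fell and 9.50% had an unadjusted p under 0.05. The 9 endothelial genes summed to 281 to 301, 197 to 286, 133 to 153 and 96.3 to 137 CPM, with Cldn5 at 0 in the 3 MPP mutants. In MPP 4 of 8 endothelial genes tested fell and 1 rose, and in LT-HSC edgeR called 0 of 7. The 1 that rose was Lyve1, from 0 to 0.694 CPM in MPP controls to 3.72 to 12.5 in MPP mutants (log2 4.45, SE 0.62, edgeR adjusted p = 0.000308). In LT-HSC mutants 1, 2 and 3 the macrophage sums were 573, 1355 and 587 CPM and the hepatoblast sums 627, 1024 and 421. The erythroid sums there were 4185, 3403 and 6311 CPM and the endothelial sums 286, 262 and 197. The part of cells of these other types, and of the shift in the gate's genes, in the results below was not tested. In such bulk samples, fewer cells of a type and less RNA per cell cannot be told apart.

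The start region of Ahsa2 is shown because Ahsa2 is the gene the pattern turns on, and that of Hsp90b1 because it is the other gene with a change in MPP mutants for which RefSeq's table of promoters (GRCm38.p6, the same sequence as mm10) held a window. Windows run from 250 bases before to 50 after a gene start, and were found for 6 of the 10 genes: Ahsa2, Ahsa1, Hsp90b1, Cdc37, Stip1 and Dnajb1. Only bases before the gene's start are printed. Capitals mark the GC box GGGCGG, which binds Sp1-type factors, and the CCAAT box CCAAT, on either strand.
Ahsa2, chr11:23498046-23498289, minus strand: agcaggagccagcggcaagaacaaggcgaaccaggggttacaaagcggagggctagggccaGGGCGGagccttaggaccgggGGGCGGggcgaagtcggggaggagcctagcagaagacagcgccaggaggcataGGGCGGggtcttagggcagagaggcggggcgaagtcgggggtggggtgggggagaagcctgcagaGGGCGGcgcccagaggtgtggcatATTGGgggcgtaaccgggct
Hsp90b1, chr10:86705445-86705694, minus strand: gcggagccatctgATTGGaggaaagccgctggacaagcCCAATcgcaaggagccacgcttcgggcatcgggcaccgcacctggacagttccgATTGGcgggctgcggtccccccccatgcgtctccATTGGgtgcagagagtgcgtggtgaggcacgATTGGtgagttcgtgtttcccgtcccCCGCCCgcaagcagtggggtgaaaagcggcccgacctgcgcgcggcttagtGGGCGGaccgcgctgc
The Ahsa2 window was 70.0% G and C, above 90.4% of the 32851 windows in the table, and held 4 GC boxes and 1 CCAAT box. The Hsp90b1 window was 66.7% G and C and held 2 GC boxes and 6 CCAAT boxes. The printed bases hold 5 of these CCAAT boxes. The Ahsa1 window was 56.0% G and C and held neither motif. At least 1 GC box was in 35.7% of all windows and at least 1 CCAAT box in 37.4%. A heat shock element with 3 units, searched on both strands as GAANNTTCNNGAA, was in 0.603% of all windows and in 0 of the windows of these 6 genes. Its shorter forms with 2 units, TTCNNGAA and GAANNTTC, overlap the longer one. TTCNNGAA was in 8.52% of all windows and in that of Cdc37. GAANNTTC was in 7.86% of all windows and in 0 of the windows of these 6 genes.

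Ahsa2 lies on chromosome 11 (mm10, 23487882 to 23498045, minus strand) and is annotated as protein coding. At its 3′ end it runs into Usp34, a ubiquitin protease gene on the other strand: in GENCODE's annotation of the same build, 2137 of the 4532 exon bases of Ahsa2 (47.2%) also belong to Usp34 exons. The antisense RNA gene 1700030C12Rik, which crosses the start region printed above, shares 137 exon bases (3.02%) and was not analysed here. The libraries do not keep the strand, so reads from these genes cannot be told apart where they overlap. Usp34 itself had 49.1 to 64.5 CPM in the LT-HSC controls, 62.5 to 67.5 in the LT-HSC mutants, 56.2 to 76.7 in the MPP controls and 68.2 to 78.0 in the MPP mutants. It was not called in LT-HSC (log2 fold change 0.22, SE 0.14, edgeR adjusted p = 0.653) or in MPP (0.16, SE 0.13, edgeR adjusted p = 0.358).

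Ahsa2 was highest in mutant MPP. The MPP mutants stood at 448, 444 and 376 CPM and the MPP controls at 57.9, 68.8 and 69.7. The LT-HSC mutants stood at 151, 144 and 147 CPM and the LT-HSC controls at 90.6, 85.9 and 78.5. The order of the groups was therefore MPP mutant, LT-HSC mutant, LT-HSC control and MPP control, and no library of one group reached into the next. The fit gave a 6.34-fold difference in MPP (log2 2.66, SE 0.11), given here as a description because it chose the gene.

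**Figure D1:**
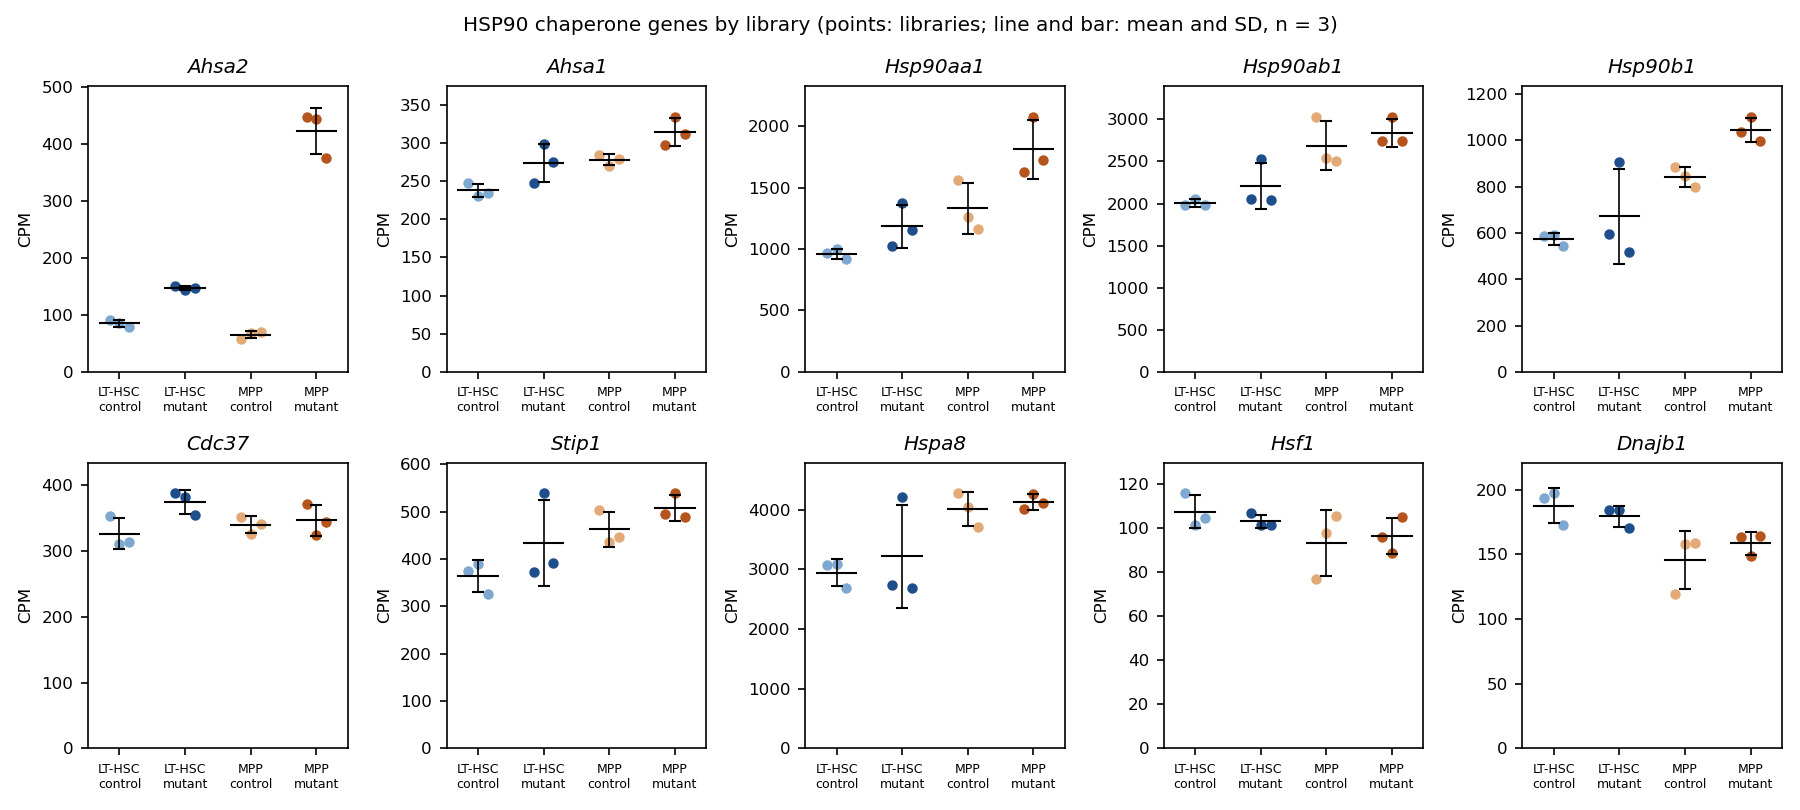
CPM of the 10 genes (vertical axes, each starting at 0 with its own scale) in the 4 groups of 3 libraries. Points are libraries, and lines and bars are the mean and SD. Ahsa2 stands at 376 to 448 CPM in MPP mutants and at 57.9 to 69.7 in MPP controls, and Hsp90b1 at 998 to 1103 against 799 to 886.

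In LT-HSC, Ahsa2 was 1.78-fold higher in mutants (log2 0.83, SE 0.10), with 3 of 3 mutants above every control. A larger change in either direction was seen in 7.78% of the 12847 genes tested, of which 0.420% were called in all. The log2 fold change stayed between 0.77 and 0.88 over all alternatives run. In MPP minus LT-HSC, the genotype effect on Ahsa2 was larger by 1.90 on the log2 scale (SE 0.14). Between controls, Ahsa2 was 1.31-fold higher in LT-HSC than in MPP (log2 0.39, SE 0.11). These values are descriptions too.

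Levels were set between genes on the TPM scale, which divides by transcript length. Ahsa1 was the main AHA1-type transcript everywhere, at 352 to 433 TPM over the 12 libraries, against 26.1 to 194 for Ahsa2. Ahsa2 made up 10.7%, 10.9% and 9.88% of the TPM of both genes in LT-HSC controls and 16.6%, 13.7% and 14.9% in LT-HSC mutants. In MPP its share was 6.23%, 7.69% and 7.58% in controls and 33.0%, 30.3% and 28.3% in mutants. The groups did not overlap in either cell type. Summed over both genes, AHA1-type TPM lay at 395 to 444 in LT-HSC controls, 458 to 502 in LT-HSC mutants, 411 to 418 in the MPP controls and 543 to 592 in the MPP mutants. Cytosolic HSP90 TPM (Hsp90aa1 plus Hsp90ab1) per unit of AHA1-type TPM was 5.77 to 7.12 in the MPP controls and 4.62 to 4.99 in the MPP mutants. In LT-HSC the same ratio was 5.05 to 5.59 in controls and 4.67 to 5.32 in mutants, and those groups overlapped. The share, the sum and the ratio all contain Ahsa2, which was chosen for its rise in mutant MPP. Their shifts between MPP genotypes therefore largely restate that choice and are not separate results. The parts without Ahsa2 overlapped there. Cytosolic HSP90 TPM spanned 2410 to 2979 (MPP controls) and 2622 to 2950 (mutants), and Ahsa1 TPM spanned 379 to 392 and 389 to 413.

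**Figure D2:**
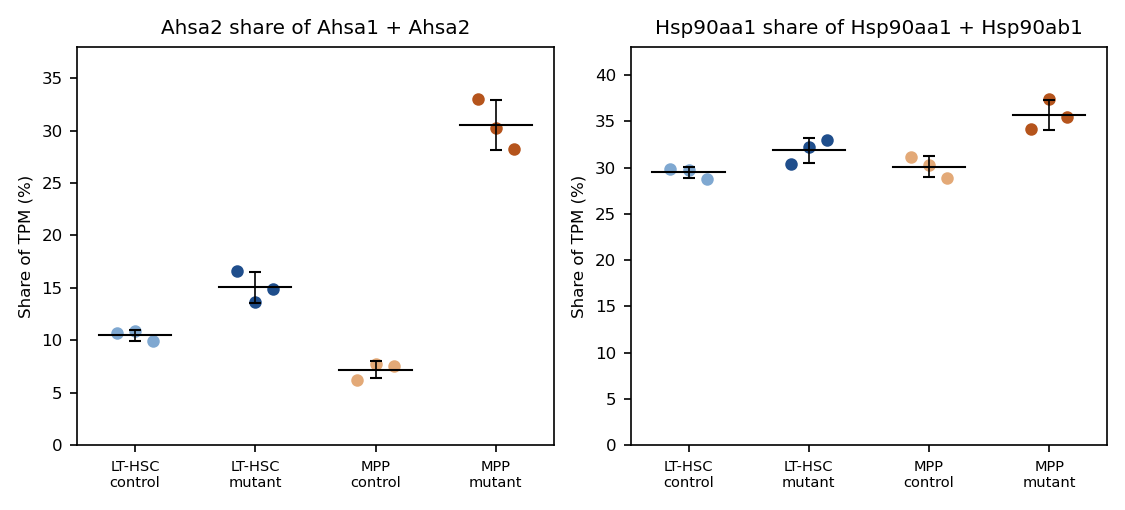
Left, Ahsa2 as a percentage of the TPM of Ahsa1 and Ahsa2 together, and right, Hsp90aa1 as a percentage of the TPM of Hsp90aa1 and Hsp90ab1 together, by group. Points are libraries, and lines and bars are the mean and SD (n = 3). The Ahsa2 share is 28.3% to 33.0% in MPP mutants and at most 16.6% in every other library, and the Hsp90aa1 share is 34.1% to 37.4% in MPP mutants and at most 33.0% elsewhere.

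Ahsa1, the paralogue, had smaller differences that did not pass. It stood at 284.7, 270.7 and 278.9 CPM in MPP controls and 298.1, 334.8 and 311.6 in MPP mutants, and at 247.6, 231.3 and 234.8 in LT-HSC controls and 247.9, 298.3 and 275.5 in LT-HSC mutants. The groups did not overlap in CPM in either cell type, in LT-HSC by a margin of well under 1 CPM. On the TPM scale they overlapped in both. There MPP controls had 379 to 392 and MPP mutants 389 to 413, and LT-HSC controls had 352 to 396 and LT-HSC mutants 382 to 433. Its log2 fold changes of 0.15 in MPP (SE 0.08, edgeR adjusted p = 0.170) and 0.24 in LT-HSC (SE 0.11, edgeR adjusted p = 0.551) did not pass.

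Of the 9 genes other than Ahsa2, 2 rose and 0 fell in MPP mutants (edgeR, adjusted over 12392 genes; DESeq2 also gave 2 and 0), which is 22.2% of them. Over all genes 35.0% were called, 16.5% as higher and 18.5% as lower, so the share is not above the background. Their median log2 fold change was 0.10 against -0.01 over all genes tested. In 3 of the 9 (Ahsa1, Hsp90aa1 and Hsp90b1) all mutants lay above all controls and in 0 below, against 26.6% and 24.4% of all genes (51.0% without overlap in either direction). In LT-HSC mutants 0 of the 9 passed with edgeR and 0 with DESeq2, and 2 (Hsp90aa1 and Cdc37) had an unadjusted p under 0.05, as did 9.50% of all genes. All mutants lay above all controls for 3 of the 9 (Ahsa1, Hsp90aa1 and Cdc37) and below them for 0, against 6.89% and 9.58% of all genes (16.5% in either direction). These separations are of CPM. On the TPM scale the MPP groups of Ahsa1 and Hsp90aa1 overlapped, as did the LT-HSC groups of Ahsa1 and Cdc37. For the difference of genotype effects 0 of the 9 passed with edgeR or DESeq2 and 0 had an unadjusted p under 0.05, in a comparison that called 0.377% of genes and had 12.4% at that unadjusted p.

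**Figure D3:**
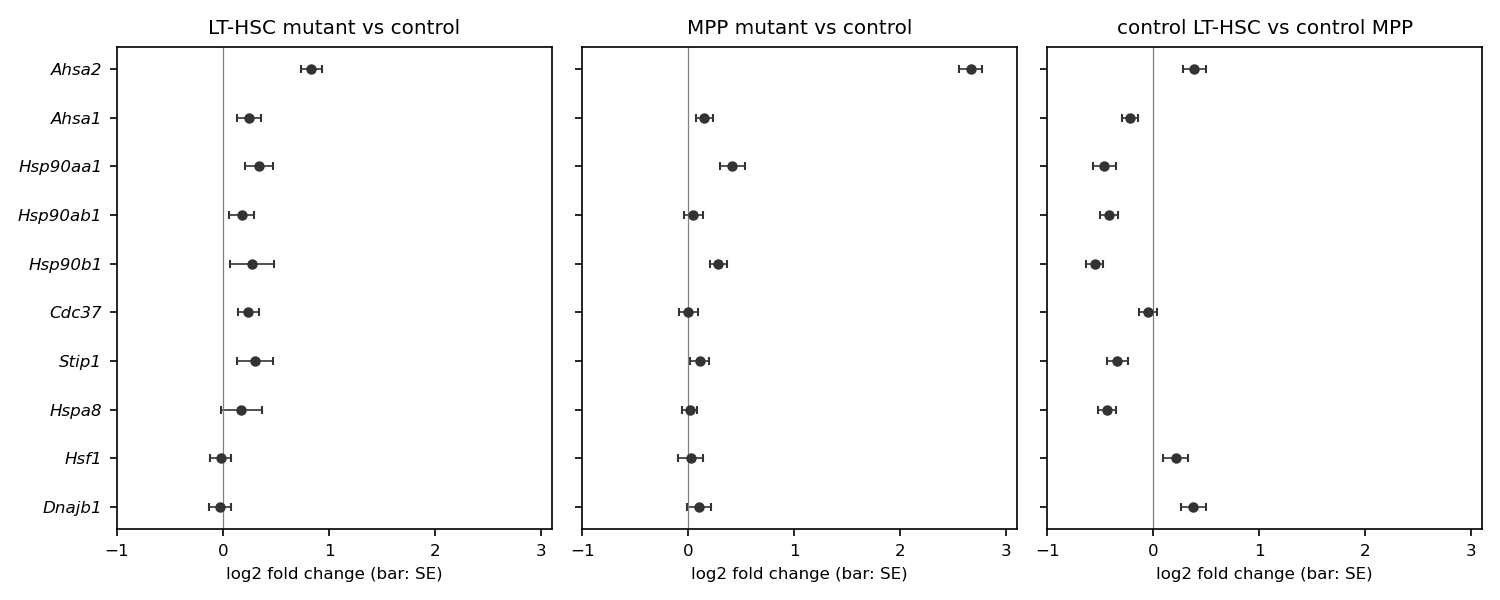
Log2 fold changes (horizontal axes, bars are 1 SE) of the 10 genes for mutant against control in LT-HSC and in MPP, and for control LT-HSC against control MPP. Ahsa2 is at 0.83 and 2.66 in the 2 genotype comparisons, the other 9 genes are between -0.03 and 0.42 in both, and 6 genes are called as lower in control LT-HSC than in control MPP.

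Among the HSP90 genes themselves, Hsp90aa1, the stress-inducible cytosolic form, rose in mutant MPP. It stood at 1566, 1264 and 1165 CPM in MPP controls and 1627, 2081 and 1730 in MPP mutants. Every mutant was above every control in CPM, with control 1 close to mutant 1. On the TPM scale these 2 libraries crossed, at 927 in control 1 and 924 in mutant 1. The log2 fold change was 0.42 (SE 0.12, edgeR adjusted p = 0.0197). The call was lost without MPP control 2 or 3 or mutant 2 (edgeR adjusted p = 0.0661, 0.0501 and 0.0954) and when MPP control 3 was the only MPP control (0.198). The LT-HSC values were 968, 1001 and 918 CPM for controls against 1026, 1373 and 1155 for mutants, also without overlap, and Hsp90aa1 did not pass there (log2 0.34, SE 0.13, edgeR adjusted p = 0.473).

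Hsp90ab1, the constitutive cytosolic form, was the more abundant of the pair in every library. MPP controls ranged over 2504 to 3024 CPM, MPP mutants over 2739 to 3033, LT-HSC controls over 1979 to 2058 and LT-HSC mutants over 2044 to 2524. The MPP groups overlapped broadly, and neither genotype comparison passed (log2 0.05 in MPP, edgeR adjusted p = 0.683, and 0.18 in LT-HSC, edgeR adjusted p = 0.690). Hsp90aa1 made up 31.1%, 30.3% and 28.9% of the cytosolic HSP90 TPM in MPP controls and 34.1%, 37.4% and 35.5% in MPP mutants. In LT-HSC the share was 29.9%, 29.8% and 28.8% in controls and 30.4%, 32.2% and 33.0% in mutants. Groups did not overlap in either cell type, and the exact two-sided permutation test gave p = 0.1 in each, the smallest that 3 libraries against 3 can give.

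Hsp90b1, the HSP90 of the endoplasmic reticulum (GRP94), also rose in mutant MPP. It stood at 886, 844 and 799 CPM in MPP controls and 1038, 1103 and 998 in MPP mutants, with all mutants higher. The log2 fold change was 0.28 (SE 0.08, edgeR adjusted p = 0.0160). This call was lost without MPP control 2 or 3 or mutant 2 (edgeR adjusted p = 0.0510, 0.0511 and 0.0777), in a fit of all 12 libraries together (0.182) and with control 3 as the only MPP control (0.566). The LT-HSC controls had 586, 590 and 543 CPM and the LT-HSC mutants 594, 905 and 516. Only mutant 2 was high, the other two lay around the control range, and without mutant 2 the log2 fold change went from 0.27 to -0.04.

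Among the co-chaperones and adaptors, Cdc37 was nearly level across all 12 libraries, from 311 to 388 CPM, the narrowest relative range of the 10 genes. MPP controls had 326 to 352 CPM, MPP mutants 324 to 371, LT-HSC controls 311 to 354 and LT-HSC mutants 354 to 388. Its log2 fold changes were 0.00 in MPP (SE 0.09) and 0.24 in LT-HSC (SE 0.10, edgeR adjusted p = 0.494). Stip1 stood at 505, 437 and 447 CPM in MPP controls and 496, 539 and 490 in MPP mutants. Its LT-HSC values were 375, 390 and 325 CPM for controls, with 372, 539 and 391 for mutants. Its groups overlapped in both cell types, and again LT-HSC mutant 2 was the high library. Stip1 did not pass in MPP (log2 0.11, SE 0.09, edgeR adjusted p = 0.355) or in LT-HSC (0.30, SE 0.17, edgeR adjusted p = 0.638).

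On the HSP70 side, Hspa8, the constitutive HSP70 (HSC70), was the most abundant of the 10 genes, at 2415 to 3652 TPM, and the 19th of all genes by median TPM. MPP controls had 3709 to 4279 CPM and MPP mutants 4005 to 4270 (log2 0.02, SE 0.07). The LT-HSC controls had 3073, 3082 and 2682 CPM and the LT-HSC mutants 2737, 4217 and 2695. Mutant 2 alone stood above the controls, and without it the log2 fold change went from 0.17 to -0.12. Dnajb1, an HSP40 that rises strongly in heat shock, had 120 to 159 CPM across MPP controls, 148 to 164 across MPP mutants, 173 to 197 across LT-HSC controls and 170 to 184 across LT-HSC mutants. Neither comparison of Dnajb1 passed (log2 0.10, SE 0.11 in MPP and -0.03, SE 0.10 in LT-HSC). Hsf1 ranged over 76.8 to 105 CPM for MPP controls, 88.6 to 105 for MPP mutants, 102 to 116 for LT-HSC controls and 101 to 107 for LT-HSC mutants. Its groups overlapped in both cell types, with log2 fold changes of 0.02 (SE 0.12) and -0.02 (SE 0.10).

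More of these genes were called between the control cell types than between genotypes. Of the 9 genes other than Ahsa2, 6 were lower and 1 was higher in control LT-HSC than in control MPP, 77.8% of them, against 38.5% of all 12834 genes tested (18.0% lower and 20.5% higher). DESeq2 also gave 6 and 1. The control groups did not overlap in CPM for these 7 genes, 6 lower and 1 higher, against 24.6% and 26.5% of all genes (51.1% in either direction). On the TPM scale those of Ahsa1 did, at 352 to 396 in LT-HSC and 379 to 392 in MPP. The 3 HSP90 genes were all lower in LT-HSC. Hsp90b1 was at 543 to 590 CPM in LT-HSC controls and 799 to 886 in MPP controls (log2 fold change -0.55, SE 0.08, edgeR adjusted p = 0.000554). Hsp90aa1 was lower with a log2 fold change of -0.46 (SE 0.11, edgeR adjusted p = 0.00835) and Hsp90ab1 with one of -0.42 (SE 0.09, edgeR adjusted p = 0.00440). Hspa8 was at 2682 to 3082 CPM in LT-HSC controls against 3709 to 4279 in MPP controls (-0.44, SE 0.08, edgeR adjusted p = 0.00284), and Stip1 at 325 to 390 against 437 to 505 (-0.34, SE 0.10, edgeR adjusted p = 0.0211). Ahsa1 was lower by the narrowest margin (-0.22, SE 0.08, edgeR adjusted p = 0.0498), and its call was lost under 11 of 12 alternatives. Dnajb1 went the other way, at 173 to 197 CPM in LT-HSC controls against 120 to 159 in MPP controls (0.38, SE 0.12, edgeR adjusted p = 0.0295). The Dnajb1 call was lost under 5 of 12 alternatives, among them without LT-HSC control 1 or 2 or MPP control 1 or 2 (edgeR adjusted p = 0.0832, 0.0890, 0.0544 and 0.0525). The Stip1 call was lost under 3 of 12, among them without LT-HSC control 3 (0.0736) and in the joint fit of all 12 libraries (0.0605). Hsf1 and Cdc37 did not pass, with log2 fold changes of 0.21 (SE 0.12, edgeR adjusted p = 0.198) and -0.05 (SE 0.09, edgeR adjusted p = 0.656). The number of sorted cells differed with the cell type and cannot be told apart from it. When only the controls with vav-cre were used, which leaves 1 MPP library, none of the 7 calls held and all 7 directions did. The adjusted p then lay at 0.239 to 0.560 for these genes, and 327 genes were called in place of 4942.

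Other genes of the system were described from lists, read against the 16.5% of genes called as higher and 18.5% as lower in MPP. Of 28 further HSP90 co-chaperones tested, 5 rose and 1 fell in MPP mutants, with a median log2 fold change of 0.04. Ppid, a cyclophilin with an HSP90-binding domain, rose from 271 to 308 CPM in controls to 376 to 466 in mutants (log2 0.53, SE 0.10, edgeR adjusted p = 0.00175). Tomm70a, a mitochondrial import receptor that docks HSP90 and HSP70, rose from 150 to 181 CPM to 231 to 255 (0.49, SE 0.09, edgeR adjusted p = 0.00218). Ptges3, the p23 co-chaperone that acts late in the cycle, was among the other 3 that rose (0.40, edgeR adjusted p = 0.00443). It was named after its value was seen.

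In the list of the HSP70 family and its partners, 9 of 30 genes tested rose in MPP mutants and 0 fell, with a median of 0.10. Bag3, a nucleotide exchange factor that rises in proteotoxic stress, stood at 4.13 to 5.32 CPM in MPP controls and 9.98 to 12.4 in mutants (log2 1.21, SE 0.19, edgeR adjusted p = 0.000564). Bag2 rose by 0.65 (SE 0.11, edgeR adjusted p = 0.000956) and Hsph1, the HSP110 exchange factor, by 0.59 (SE 0.10, edgeR adjusted p = 0.00101). The inducible HSP70 genes Hspa1a and Hspa1b were among the other genes called, at low levels, and are named after their values were seen. Hspa1a was at 0.463, 0.748 and 0.909 CPM in MPP controls and 9.57, 1.81 and 3.39 in mutants, and Hspa1b at 0.848, 1.74 and 2.31 against 11.97, 2.54 and 5.34. Mutant 1 was far above the other two for both. The 2 genes are near-identical copies whose reads the counting splits by estimate, so their separate values are uncertain.

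A list of heat shock response genes had 7 of 14 genes called as higher and 0 as lower in MPP mutants, with a median of 0.32. All 7 are also counted in the HSP70 list above or, for Hspd1 and Hspe1, in the mitochondrial list below, so they are not separate calls. Hspa1a and Hspa1b are among the 7. Hspe1, the mitochondrial HSP10, went from 227 to 247 CPM in controls to 331 to 423 in mutants (log2 0.63, SE 0.10, edgeR adjusted p = 0.000650). Hspb1 and Hspb8 of the same list did not pass the filter on low counts in MPP and were not tested. Both were at 0 in the 3 MPP mutants, a value at the floor. Of 6 HSF-related genes, 1 rose: Hsbp1, which binds HSF1 and damps it, from 145 to 159 CPM to 189 to 223 (0.43, SE 0.09, edgeR adjusted p = 0.00426). Hsf2 was not called (-0.32, SE 0.23, edgeR adjusted p = 0.295).

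Chaperones outside the HSP90 and HSP70 groups were listed by complex and compartment. Of 14 genes of the TRiC chaperonin and prefoldin, which fold actin and tubulin, 8 rose and 0 fell in MPP mutants, with a median of 0.30. Cct4 rose by 0.41 (SE 0.09, edgeR adjusted p = 0.00619), Tcp1 by 0.36 (SE 0.09, edgeR adjusted p = 0.00708) and Cct8 by 0.34 (SE 0.08, edgeR adjusted p = 0.00667). Of 18 chaperones of the endoplasmic reticulum, 8 rose and 1 fell, with a median of 0.25. Hyou1 rose from 64.3 to 73.4 CPM to 109 to 118 (0.68, SE 0.09, edgeR adjusted p = 0.000247), and Hspa5 (BiP), the HSP70 that works beside Hsp90b1, rose by 0.42 (SE 0.07, edgeR adjusted p = 0.00127). Cnpy3, a co-chaperone of GRP94 for Toll-like receptors, fell by 0.58 on the log2 scale (SE 0.10, edgeR adjusted p = 0.00125). Of 11 mitochondrial chaperones and proteases, 8 rose and 0 fell, with a median of 0.42. Clpx, the unfoldase of the ClpXP protease, was at 61.3, 68.5 and 74.2 CPM in MPP controls and 146, 191 and 172 in mutants (1.29, SE 0.11, edgeR adjusted p = 1.56e-05). Dnajc19 rose by 0.79 (SE 0.11, edgeR adjusted p = 0.000342).

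In LT-HSC mutants edgeR called 0 genes of these 7 lists, and DESeq2 called 1, among the endoplasmic reticulum chaperones. Unadjusted p-values under 0.05 numbered 2 of 28 co-chaperones, 0 of 30 HSP70 partners, 0 of 14 heat shock response genes, 1 of 6 HSF-related genes, 6 of 14 chaperonin genes, 1 of 18 endoplasmic reticulum genes and 1 of 11 mitochondrial genes, read against 9.50% of all genes. Medians were 0.10, 0.11, 0.21, 0.18, 0.26, 0.17 and 0.22 in the same order, against 0.03 over all genes. For the difference of genotype effects edgeR called 0 genes of the 7 lists and DESeq2 called 1, a mitochondrial one, with between 0 and 4 genes per list at an unadjusted p under 0.05, against 12.4% of all genes.

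**Figure D4:**
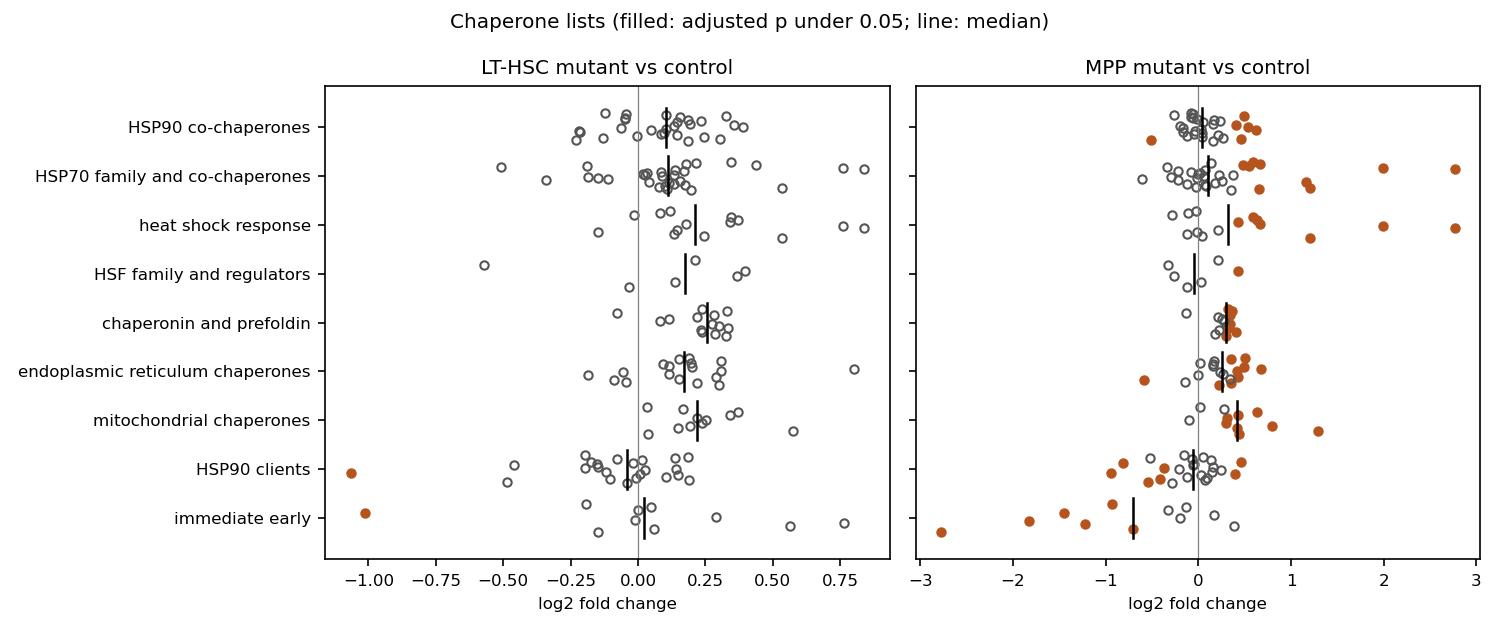
Log2 fold changes of mutant against control (horizontal axes, different scales) for the tested genes of 9 lists in LT-HSC and MPP. Each circle is a gene, filled where the edgeR adjusted p was under 0.05, and the line is the list's median. In MPP the filled circles of the mitochondrial, chaperonin and heat shock response lists lie to the right of 0 and those of the immediate early list to the left, while LT-HSC shows 2 filled circles, Flt3 and Jun.

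Proteins that depend on HSP90 were listed too. Of 23 client genes tested, 2 rose and 5 fell in MPP mutants, with a median of -0.05. Flt3, a receptor kinase of progenitors, fell in both cell types, from 402 to 490 CPM to 204 to 274 in MPP (log2 -0.94, SE 0.12, edgeR adjusted p = 0.000158) and from 132 to 150 CPM to 52.0 to 78.2 in LT-HSC (-1.07, SE 0.15, edgeR adjusted p = 0.0440). Lyn, a Src-family kinase, fell in MPP by 0.82 (SE 0.10, edgeR adjusted p = 0.000128), and Nr3c1, the glucocorticoid receptor, rose by 0.46 (SE 0.12, edgeR adjusted p = 0.0127). In LT-HSC Flt3 was the 1 client gene called. Immediate early genes, which respond quickly to handling and signalling, were listed as well: 6 of 11 tested fell in MPP mutants and 0 rose, with a median of -0.71. Atf3 went from 3.46 ± 0.324 CPM (SD, n = 3) in MPP controls to 0.507 ± 0.120 in MPP mutants. Jun fell by 1.45 on the log2 scale in MPP (SE 0.16, edgeR adjusted p = 6.61e-05) and by 1.01 in LT-HSC (SE 0.15, edgeR adjusted p = 0.0456). Zfp36 fell by 0.93 in MPP (SE 0.11, edgeR adjusted p = 8.22e-05).

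Neighbours of Ahsa2 were read within 500 kb on chromosome 11. The closest tested gene beyond its start, 0610010F05Rik, a protein-coding gene with the near end 66.9 kb away, stood at 29.2, 33.7 and 32.2 CPM in MPP controls and 68.5, 65.2 and 67.4 in MPP mutants. It rose with a log2 fold change of 1.05 (SE 0.10, edgeR adjusted p = 2.71e-05). Its LT-HSC values of 18.0, 15.7 and 26.6 CPM for controls and 26.1, 24.4 and 44.5 for mutants overlapped and did not pass (0.70, SE 0.29, edgeR adjusted p = 0.512). Between Ahsa2 and 0610010F05Rik, 1700093K21Rik and the pseudogene Gm12060 were under 1 CPM in every library and not tested. Further out, Pus10 (0.48, edgeR adjusted p = 0.00674), Xpo1 (0.42, edgeR adjusted p = 0.00251) and Cct4 (0.41, edgeR adjusted p = 0.00619) rose in MPP mutants, and Rel fell (-0.52, edgeR adjusted p = 0.0307). Pex13 (0.20, edgeR adjusted p = 0.149), Papolg (-0.11, edgeR adjusted p = 0.478) and Usp34 did not pass. Over all genes in MPP, 16.5% were called as higher and 18.5% as lower. Fam161a passed the filter on low counts in LT-HSC but not in MPP. Its LT-HSC controls had 1.72, 1.55 and 3.77 CPM and its mutants 1.56, 0.288 and 1.84, which overlapped (log2 -0.87, SE 0.67, edgeR adjusted p = 0.734). In LT-HSC none of the 9 neighbours tested passed with edgeR, where 0.420% of all genes were called. There Xpo1 (0.33, edgeR adjusted p = 0.421), Pus10 (0.36, edgeR adjusted p = 0.454) and 0610010F05Rik had an unadjusted p under 0.05, as did 9.50% of all genes.

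**Figure D5:**
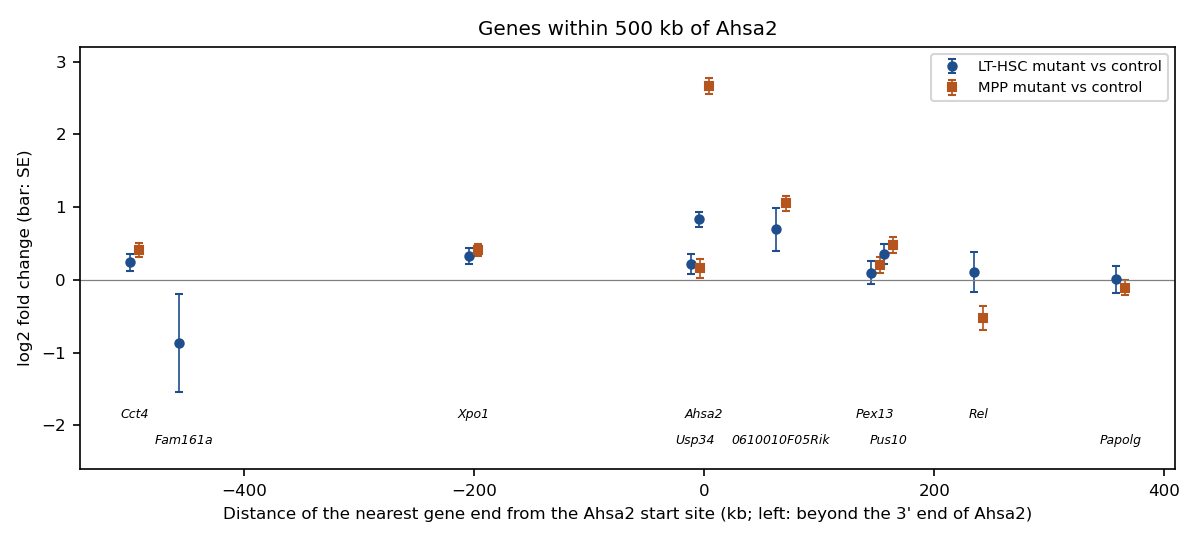
Log2 fold changes of mutant against control (vertical axis, bars are 1 SE) for the tested genes within 500 kb of Ahsa2, placed by the distance of their nearer end from the start of Ahsa2. Circles are LT-HSC and squares MPP, drawn slightly apart. Ahsa2 has the highest value in both cell types, with 0610010F05Rik next, and Fam161a, tested in LT-HSC only, has the lowest at -0.87.

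The genes whose pattern over the 12 libraries was most like that of Ahsa2, by Pearson's r of log2 CPM among 13248 genes, were Nxt2 (0.976), Cdsn (0.958), Papola (0.955), 6720489N17Rik (0.948) and Mbd1 (0.946). They were picked for this likeness, and all points share the 4 groups and the library scaling. Nxt2, which acts in mRNA export, had 14.3 to 16.9 CPM in MPP controls, 38.5 to 52.3 in mutants, 16.8 to 18.9 in LT-HSC controls and 22.5 to 26.8 in LT-HSC mutants. Cdsn, a gene of the skin's corneodesmosomes, was at 0 in all 6 controls, at 0.575 to 1.18 CPM in LT-HSC mutants and at 2.85 to 3.81 in MPP mutants. The prior count added before taking logs was 2. With 0.5 in its place, Cdsn left the first 5 genes and Lrrc20 (0.945) entered. Papola, a poly(A) polymerase, stood at 345 to 372 CPM in the MPP controls and 623 to 808 in the MPP mutants. Among the chaperone genes, Hsp90aa1 had an r of 0.67 with Ahsa2 and Ahsa1 one of 0.66, at positions 1436 and 1506, while the r of Dnajb1 was 0.033 and that of Hsf1 -0.024.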

How the data were processed

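The authors deposited 1 table per library with expected counts, TPM, FPKM and transcript lengths per gene, per the file headers. The submitters' processing notes name STAR, RSEM and the mm10 build without versions or settings, which were not given in the sources used here. Expected counts are estimates that share reads among genes they fit: the values of Ahsa2 and Usp34 were fractional in 12 of 12 libraries, those of the other 9 genes in 0. TPM from the deposited tables were used to set levels between genes, and FPKM were not used. Expected counts were rounded, filtered with filterByExpr (at least 10 counts, total of 15) and scaled by TMM. Genes were then compared by the quasi-likelihood test of edgeR 4.0.16 (limma 3.58.1, R 4.3.3) at a Benjamini-Hochberg adjusted p under 0.05. The genotype was fitted in the 6 libraries of each cell type, the cell type in the 6 controls and the difference of genotype effects in all 12. CPM were scaled over all 12 libraries, so their ratios can differ slightly from a fit's fold change. The SE is the log2 fold change divided by the square root of F. DESeq2 1.42.0 on the same counts was an alternative, with upper-quartile scaling, no filter, a joint fit, a replicate block, only Cre-carrying controls and each library left out in turn. The script was tested on simulated data.

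Groups and replicate numbers came from titles and genotype labels. Deviations from the group means correlated across genes between LT-HSC control and mutant of the same number (r 0.108, 0.148 and 0.175). By the rule used (each r over 0.1) these numbers would pair the LT-HSC libraries, although the labels do not explain them. Libraries of different numbers had r of -0.203 to 0.056 in LT-HSC. They reached 0.21 in MPP and 0.202 between the control cell types, so the rule cannot establish a pairing. The titles' numbers were used; those in the deposited tables' names differ for some libraries and put the first LT-HSC control and mutant under different numbers, so the pairing and the replicate block rest on the titles. In MPP the r of control and mutant of the same number was -0.025, -0.212 and -0.177.

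The 10 genes and the lists were chosen with earlier results of these data known, so no count over them is independent support. Named genes are the 10, up to 3 called genes with the smallest p per list and genotype comparison, the tested genes within 500 kb of Ahsa2 and the 5 most like it. Genes were matched to RefSeq and GENCODE annotations of the mm10 sequence by accession or symbol. The rule also named 1 co-chaperone that is not reported here.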

Additional observations from a re-analysis of the deposited data

Results flagged for a closer look

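The genotype effect on Ahsa2 differed between the cell types: it was larger in MPP than in LT-HSC by 1.90 on the log2 scale (SE 0.14), with Ahsa2 higher in 3 of 3 mutants than in any control in both cell types. Ahsa2 was chosen with these values known, so no p is given for this difference. It lay between 1.65 and 1.97 over the alternatives run, with the lowest value when only Cre-carrying controls were used.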

How the results depend on the processing

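Ahsa2 in LT-HSC kept its direction under the 12 alternatives run, including the replicate block (log2 0.83). Leaving out each library gave 0.77 to 0.87. Its difference between control cell types was 0.17 with only Cre-carrying controls and 0.30 to 0.45 with each library left out. With the replicate block, the Ahsa1 call between control cell types was lost (edgeR adjusted p = 0.0955), and no other call on the 10 genes changed.

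The 54 genes called in LT-HSC became 283 with DESeq2, 250 in the joint fit and 13 to 102 with each library left out (lowest without control 3, highest without mutant 2). The 4337 in MPP became 2792 in the joint fit, 125 with only Cre-carrying controls and 2774 to 4756 with each library left out. The 4942 between control cell types became 327 with only Cre-carrying controls, and 3410 to 4873 with each library left out. The 50 genes called for the difference of genotype effects became 336 with DESeq2, 87 without a filter, 0 with only Cre-carrying controls (829 at an unadjusted p under 0.05) and 1 to 885 with each library left out (lowest without MPP mutant 2, highest without LT-HSC mutant 3). With upper-quartile scaling 11 were higher and 30 lower, against 20 and 30. The causes were not tested.

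No called value changed sign, but small ones did. With upper-quartile scaling, log2 fold changes in MPP went to -0.011 for Hsp90ab1, -0.057 for Cdc37, -0.0455 for Hspa8 and -0.037 for Hsf1. With only Cre-carrying controls they went to -0.037 for Cdc37, -0.19 for Hsf1 and -0.062 for Dnajb1 in MPP, 0.043 for Hsf1 in LT-HSC, -0.099 for Hsf1 between cell types, and, for the difference of genotype effects, -0.23 for Hsf1 and -0.061 for Dnajb1. With each library left out, values in LT-HSC ran from -0.045 to 0.44 for Hsp90b1, -0.12 to 0.29 for Hspa8, -0.0555 to 0.033 for Hsf1 and -0.088 to 0.0145 for Dnajb1. In MPP they ran from -0.040 to 0.054 for Cdc37, -0.032 to 0.067 for Hspa8, -0.097 to 0.13 for Hsf1 and -0.020 to 0.17 for Dnajb1. For the difference of effects they ran from -0.093 to 0.041 for Ahsa1, -0.12 to 0.047 for Hsp90ab1, -0.0785 to 0.36 for Hsp90b1, -0.22 to 0.065 for Stip1, -0.20 to 0.16 for Hspa8 and -0.019 to 0.19 for Hsf1.

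Only 1 MPP control carried vav-cre, so the fits with Cre-carrying controls assume that it varies like the other groups. The LT-HSC mutants differed most among themselves (chi-square per gene 24.8 to 47.2), and the LT-HSC comparison has the widest errors for Hsp90b1 (SE 0.21) and Hspa8 (SE 0.19). The Ahsa2 values also rest on how the deposited estimates split reads with Usp34, which was not tested.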
